A study of Mus musculus with 8 samples.

Results

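The endoplasmic reticulum folding and stress genes described here are 40 of the 19669 genes in a pooled single-cell RNA count table of mouse erythroblastic island cells. They were taken by name and fall into 4 arms: 17 folding genes (chaperones, lectins, disulphide isomerases), 9 stress genes (sensors, transcription factors and their targets), 7 genes of degradation and 7 of protein import. Erythroblastic islands are nests of maturing red cell precursors around a macrophage, and the suspensions also held the other blood cells of the organ. All 8 libraries came from male Sle1.Yaa mice, a lupus-prone strain, with no treatment. The anaemic mice carried a human TLR8 transgene and gave 2 bone marrow and 2 spleen libraries, and the non-anaemic controls of the same strain gave 3 bone marrow libraries and 1 spleen library. The labels name neither the ages of the mice nor the promoter of the transgene. Cells in the table carry only barcodes, so none could be assigned to a library, organ or genotype. The table is therefore 1 pooled sample, and cell classes are compared within it without any test.

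Proteins bound for secretion or for a membrane enter the endoplasmic reticulum through the Sec61 channel, lose their signal peptide to signal peptidase and are folded by chaperones, lectins and disulphide isomerases. Chains that do not fold are drawn back to the cytosol and degraded. Misfolded protein in the lumen is sensed by the products of Ern1, Atf6 and Eif2ak3. The Ern1 product splices the mRNA of Xbp1, and the resulting factor turns on secretory genes and is needed for plasma cells to secrete antibody. The kinase made by Eif2ak3 and its relatives Eif2ak1 (regulated by haem), Eif2ak2 (by double-stranded RNA) and Eif2ak4 (by amino acid shortage) act on the same initiation factor, which slows translation in general and favours that of Atf4. Atf4 in turn drives Ddit3, Trib3, Chac1 and Asns, and in erythroid precursors the haem-regulated kinase ties globin synthesis to haem supply. Transcript counts from 3′ ends do not show splicing of Xbp1 or translation of Atf4.

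The table held 248384567 UMIs (unique molecular identifiers, each standing for 1 captured transcript) in 24942 cells, with a median of 7554 UMIs per cell. The 40 genes held 1211500 of these UMIs, or 0.488%. The barcodes stand in 8 sorted runs, each taken as 1 unnamed library, of 447 to 6787 cells and 6195876 to 48442321 UMIs. In all, 287 barcodes occurred in more than 1 run and 12 in all 8 runs. These repeats marked 1031 cells, among them 165 of 468 plasma cell-like cells and 174 of the 1127 erythroid cells with least globin, so the counts of called genes and the leading levels of those classes are also given without them. Clusters were named from RNA markers among which none of the 40 genes stood, and 2532 cells stayed unnamed. The conventional dendritic cell-like class was led by Tbc1d4 and Dntt, both fixed markers of lymphoid progenitors, so that name is weak. Erythroid cells were cut by the share of globin in their UMIs, at 2%, 20%, 60% and 80%. These stages are ranges of a continuous score, and 473, 150, 217 and 162 of the 10183 erythroid cells lay within 1 percentage point of the respective cuts.

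A level here is in CPM, the UMIs of a gene per 1000000 UMIs outside globin and immunoglobulin genes. Its 95% interval is an exact Poisson interval of the pooled UMIs and covers counting error only, and the spread is the range over runs with at least 20 cells of the class. Differences are log2 ratios of levels with 10 CPM added to each, which understates the change of low genes, and are centred on the median gene. A gene was called higher or lower between 2 classes when it reached 20 CPM in either, differed at least 2-fold and had the same sign in every run that held both classes. Because it passed through the class where it was high, a gene near that filter could scarcely be called in the other direction.

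The genes differ in the regulatory letters near their RefSeq starts, and the folding genes and the Atf4 targets carry different motifs. RefSeq promoter windows (250 bases before to 50 after a start, GRCm38.p6) were at hand for 33 of the 40 genes. The endoplasmic reticulum stress element, searched on both strands as CCAAT, any 9 bases and CCACG, was present in 9 of them and in 0.119% of all 32851 windows. The 9 comprise 7 of the 14 folding genes with a window (Hspa5, Hsp90b1, Calr, Canx, Pdia6, Creld2 and Dnajc3) and the degradation genes Derl3 and Syvn1. No stress or translocation gene held it. Capitals mark the match, and those that read CGTGG first lie on the opposite strand. The stretch of Hsp90b1, which encodes the chaperone Grp94, holds 2 matches that face each other. The match of Hspa5 lies before the RefSeq start but inside the span that GENCODE M21 gives for the gene. The positions are chr2:34772005-34772063 (plus strand) for Hspa5, chr10:86705513-86705676 (minus) for Hsp90b1, chr8:84847055-84847113 (minus) for Calr, chr12:17266471-17266529 (plus) for Pdia6, chr15:88819500-88819558 (plus) for Creld2 and chr10:75893222-75893280 (plus) for Derl3.
Hspa5: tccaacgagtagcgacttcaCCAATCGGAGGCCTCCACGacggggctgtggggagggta
Hsp90b1: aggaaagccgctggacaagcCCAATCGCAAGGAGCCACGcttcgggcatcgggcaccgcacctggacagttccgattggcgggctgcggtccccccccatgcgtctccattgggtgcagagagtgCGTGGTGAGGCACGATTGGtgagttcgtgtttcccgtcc
Calr: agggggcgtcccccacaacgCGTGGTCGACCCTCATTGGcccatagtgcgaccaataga
Pdia6: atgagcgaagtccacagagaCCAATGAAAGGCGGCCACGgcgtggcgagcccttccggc
Creld2: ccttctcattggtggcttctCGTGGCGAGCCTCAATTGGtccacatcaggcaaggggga
Derl3: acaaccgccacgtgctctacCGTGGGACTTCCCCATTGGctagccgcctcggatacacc

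The composite element bound by Atf4 with C/EBP partners, searched as TGATGNAA on both strands, was present in the windows of Asns, Chac1, Herpud1 and Trib3 and in 3.97% of all windows. It was thus in 3 of the 8 stress genes and in 0 of the 14 folding genes with a window. This motif was added after the matches to the first had been seen. In Trib3 the match lies after the RefSeq start but before the start in GENCODE M21. In Asns the match lies before the RefSeq start but inside the GENCODE M21 span of the gene. The positions are chr6:7693210-7693252 (minus strand) for Asns, chr2:119351029-119351076 (plus) for Chac1 and chr8:94386297-94386344 (plus) for Herpud1, and those that read TTGCATCA lie on the opposite strand. The letters TGACGTGG and TGACGTCA occurred in 0 of the 33 genes with a window, against 0.676% and 1.79% of all windows. A match is a description of the letters and not of binding.
Asns: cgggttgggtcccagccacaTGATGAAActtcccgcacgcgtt
Chac1: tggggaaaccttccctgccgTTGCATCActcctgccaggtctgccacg
Herpud1: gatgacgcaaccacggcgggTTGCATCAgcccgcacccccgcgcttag

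Across the 19 cell classes, plasma cell-like cells stood first in the summed level of every arm, and the order below them differed between arms. The folding arm reached 34673 CPM in plasma cell-like cells (95% interval 34476 to 34871), followed by basophil and mast cell-like cells at 9697 CPM, megakaryocyte and platelet-like cells at 5931, macrophage-like cells at 5613 and plasmacytoid dendritic cell-like cells at 5430. Neutrophil-like cells were last at 1050 CPM. Over runs, the folding arm ranged from 18426 to 44036 CPM in plasma cell-like cells (median 37061, 8 runs) and from 7126 to 9579 in basophil and mast cell-like cells (3 runs), so these did not overlap. The macrophage-like range (4867 to 6235) and the plasmacytoid range (5101 to 6680) overlapped each other. Without the repeated barcodes the plasma cell-like folding level was 30909 CPM.

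On the scale without globin the stress arm was ordered otherwise. After plasma cell-like cells at 2903 CPM (2186 to 3238 over 8 runs), its next classes were erythroid cells with 20 to 60% globin at 957 CPM and with 60 to 80% globin at 807 CPM. Plasmacytoid dendritic cell-like cells followed at 715 CPM, endothelial and stromal-like cells (61 cells) at 698, erythroid cells with 2 to 20% globin at 626 and pro-B and pre-B cell-like cells at 618. The place of the erythroid stages depends on leaving globin out of the total. On the scale of all UMIs they stood at 567.8 CPM (20 to 60% globin) and 247 CPM (60 to 80%), below plasmacytoid (710), endothelial and stromal-like (694) and pro-B and pre-B cell-like cells (610). The ratio of folding to stress UMIs was lowest in erythroid cells with 20 to 60% globin, at 2.45, and highest in basophil and mast cell-like cells, at 22.3, with 11.9 in plasma cell-like cells. The UMIs of the stress arm came from different genes in the 2 leading classes: Atf4 gave 55.6% of them in erythroid cells with 20 to 60% globin, and Xbp1 gave 67.5% in plasma cell-like cells, where Atf4 gave 15.6%.

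**Figure D1:**
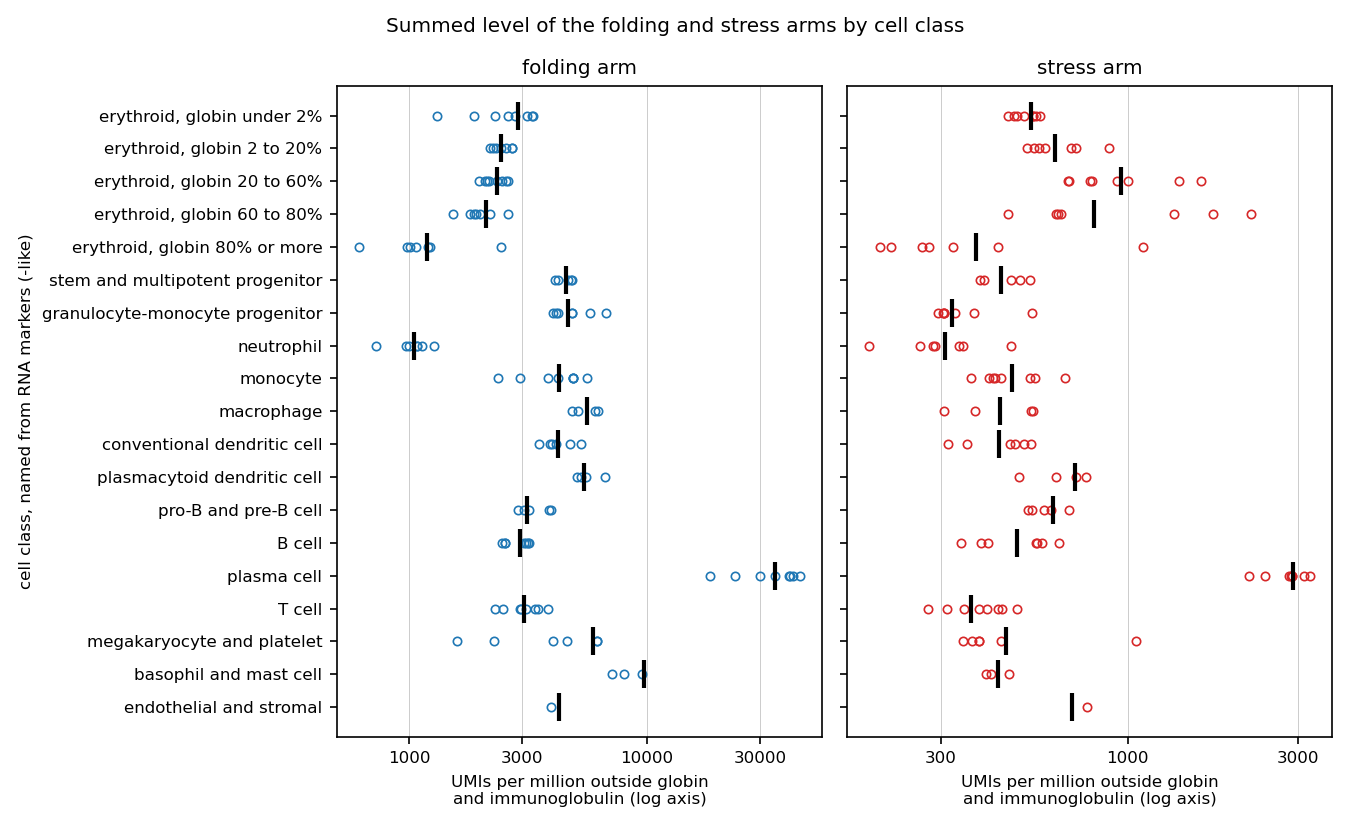
Summed level of the folding arm (left) and the stress arm (right) in CPM outside globin and immunoglobulin, on log axes, for 19 cell classes. Open circles are runs with at least 20 cells of the class and black bars the pooled level: plasma cell-like cells lie to the right in both panels (34673 and 2903), and erythroid cells with 20 to 60% globin come second in the stress arm (957) and at rank 16 in the folding arm (2348), with the stress value at 567.8 when all UMIs form the total.

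Gene by gene, plasma cell-like cells had the highest pooled level for 16 of the 17 folding genes, all 7 degradation genes, all 7 translocation genes and 4 of the 9 stress genes. For all genes, the share highest in this class was not computed. The exception among folding genes was Canx, the membrane-bound lectin chaperone calnexin, whose highest level was 619 CPM in macrophage-like cells (434 to 736 over runs). Asns, Atf4, Ddit3 and Trib3 were highest in erythroid stages, except that with all UMIs as the total Atf4 was highest in pro-B and pre-B cell-like cells (338 CPM, against 316 CPM at 20 to 60% globin). Eif2ak3 was highest in pro-B and pre-B cell-like cells at 75.6 CPM, next to 74.9 CPM in plasma cell-like cells, a difference well inside the range over runs.

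**Figure D2:**
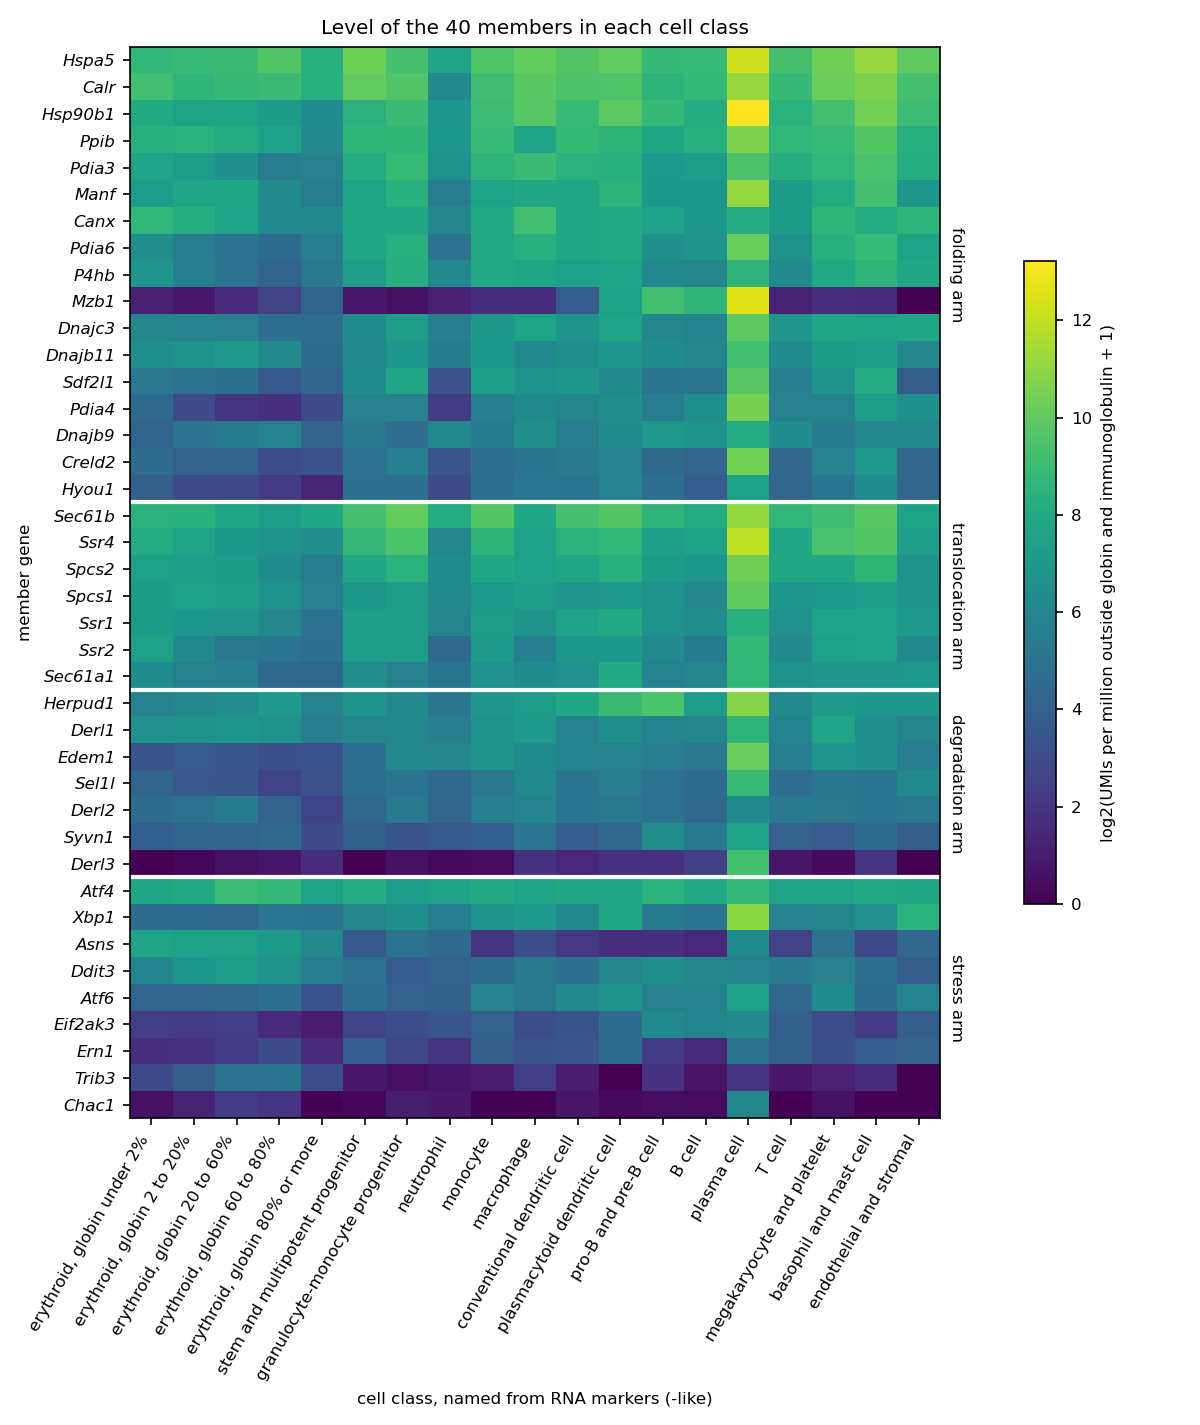
Pooled level of the 40 genes (vertical, grouped by arm) in 19 cell classes (horizontal), as log2 of CPM plus 1, with brighter colour for higher levels. The plasma cell column is the brightest for most folding, translocation and degradation genes, while Atf4, Ddit3, Asns and Trib3 are brightest in erythroid columns on this scale (Atf4 is higher in pro-B cells when all UMIs form the total).

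Plasma cell-like cells were set beside B cell-like cells to describe the antibody-secreting class against its non-secreting relatives. Of 39 genes that passed the filter, 35 were higher in plasma cell-like cells (468 against 585 cells, 7 runs with both) and 0 were lower. Over all 5841 genes, 11.4% were higher and 9.21% lower. The median log2 difference of the 39 genes was 3.05, against 0 for all genes. Called higher were 16 of 17 folding, 7 of 7 translocation, 7 of 7 degradation and 5 of 8 stress genes. Without repeated barcodes 36 were higher and 0 lower (background 14.2% and 10.1%, 4 runs). With all UMIs as the total and no centring, which moved the median gene to -0.98, 27 were higher and 1 lower. No share of all genes was computed in that setting.

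Among the chaperones, Hspa5 (BiP, the Hsp70 of the lumen, at chr2:34771970-34777547 on GRCm38) stood in plasma cell-like runs at 2127, 4002 and 6692 CPM (lowest, median, highest) and in B cell-like runs at 382, 468 and 673. Every plasma cell-like run lay above every B cell-like run, and the log2 difference was 3.26 (2.16 to 3.68 over runs). Hsp90b1, which folds a narrower set of clients that includes immunoglobulin chains and integrins, was the most abundant folding gene of the class at 9525 CPM, ranging from 4047 to 12350 over runs, against 204 to 459 in B cell-like runs (log2 difference 5.07, 3.41 to 5.86). Without repeated barcodes these genes stood at 3854 CPM (Hspa5) and 8191 CPM (Hsp90b1) in plasma cell-like cells. Creld2, a secreted stress-induced disulphide isomerase-like protein, showed the largest difference of the 40, at 5.59 (4.71 to 6.16): 1333 CPM (650, 1204 and 2307 over runs) against 19.0 CPM. The BiP partners Sdf2l1 (896 against 35.1 CPM), Dnajc3 (995 against 61.7), Dnajb11 (594 against 65.7) and Hyou1 (182 against 13.4), and the trophic factor Manf (2204 against 126), were called with them. Dnajb9 had 281 CPM against 112, but its run values of -0.39 to 2.04 crossed 0 and it was called only without repeated barcodes.

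Mzb1, a B-lineage protein that works with Grp94 in assembling immunoglobulin M, reached 6041 CPM in plasma cell-like cells (3286, 6077 and 8774 over runs) against 395 in B cell-like cells (183, 327 and 586), a log2 difference of 3.96 (3.80 to 4.65). The runs did not overlap. The lectin chaperone Calr (calreticulin) had 1490, 2194 and 2887 CPM in plasma cell-like runs and 259, 463 and 694 in B cell-like runs (log2 difference 2.41), whereas its membrane-bound relative Canx differed by only 1.17. Among isomerases, Pdia4 differed most (1482 against 93.5 CPM, 3.91), followed by Pdia6 (1122 against 114, 3.25), P4hb (389 against 62.7, 2.52), the cyclophilin Ppib (941, 1623 and 2524 CPM over runs against 242, 267 and 401, 2.37) and Pdia3 (728 against 153, 2.24).

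The import machinery followed the chaperones. Ssr4, a subunit of the translocon-associated complex, had 2758, 3778 and 4715 CPM in plasma cell-like runs and 127, 192 and 297 in B cell-like runs (log2 difference 4.35). Sec61b, a subunit of the channel itself, stood at 1217, 2276 and 3445 against 235, 286 and 336 CPM (2.94). The signal peptidase subunits had differences of 3.77 for Spcs1 (1019 CPM, 899 to 1345 over runs, against 68.8) and 3.31 for Spcs2 (1300 CPM, 1144 to 1489, against 127). In none of these 4 genes did the runs of the classes overlap. The share of all genes without such overlap was not computed. Ssr2 (3.24), Sec61a1 (2.62) and Ssr1 (1.82) completed the arm.

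Degradation genes were also called without exception. Derl3, a derlin of the retrotranslocation machinery, had 326, 487 and 977 CPM over plasma cell-like runs and only 15 UMIs, or 4.58 CPM, in all B cell-like cells (log2 difference 5.45, 4.54 to 5.97). Its ubiquitous relatives differed less, at 2.52 for Derl1 (269, 371 and 495 against a pooled 62.7 CPM) and 1.53 for Derl2. Edem1, which marks misfolded glycoproteins for disposal, had 874, 1020 and 1531 CPM over runs against 36.7 (4.74). The membrane adaptor Sel1l had 202, 450 and 698 CPM against 23.5 (3.98), and its ubiquitin ligase partner Syvn1 193 against 38.2 (2.13). Herpud1, a stress-induced scaffold of the same complex, had 556, 1494 and 2393 CPM against 103, 171 and 224 (3.50).

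Within the stress arm the genes parted. Xbp1 (chr11:5520659-5525893) stood at 1244, 1942 and 2370 CPM in plasma cell-like runs and at 23.5, 36.5 and 45.1 in B cell-like runs, with no overlap and a log2 difference of 5.53 (4.69 to 5.93). Without repeated barcodes it stood at 2112 CPM. The sensors Atf6 (183 against 58.4 CPM, 1.55) and Ern1 (32.1 against 1.83 CPM, 1.89) were called higher, and Eif2ak3 was not (0.29). Among targets shared with other stresses, Asns (asparagine synthetase) had 33.7, 78.7 and 144 CPM over plasma cell-like runs against 1.83. Chac1, which degrades glutathione, had 11.2, 49.0 and 109 CPM over runs against 1 UMI in all B cell-like cells. Atf4 itself had 236, 432 and 555 CPM over plasma cell-like runs and 187, 240 and 364 over B cell-like runs, which overlap, with a difference of 0.80 (0.32 to 1.43). Ddit3, the pro-apoptotic factor CHOP, was not called at 55.7 against 65.7 CPM (-0.15, -1.10 to 0.45), and Trib3 did not reach the filter. The annotation used for positions (GENCODE M21) lists 2 overlapping models under the name Ddit3, and the labels do not say how the deposited counts treated them.

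Of 80 further genes of the pathway that passed the filter, 55 were higher in plasma cell-like cells (background 11.4%) and 0 lower (background 9.21%). The largest differences belonged to the prolyl isomerase Fkbp11 (438 against 4.28 CPM, 5.03), the mannosidase-like Edem2 (734 against 17.4, 4.82) and the thioredoxin-domain protein Txndc5 (2052 against 74.0, 4.68). The other kinases of the initiation factor did not share in this: Eif2ak1 differed by 0.21, and Eif2ak2 (0.08) and Eif2ak4 (-0.35) stayed below the filter.

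**Figure D3:**
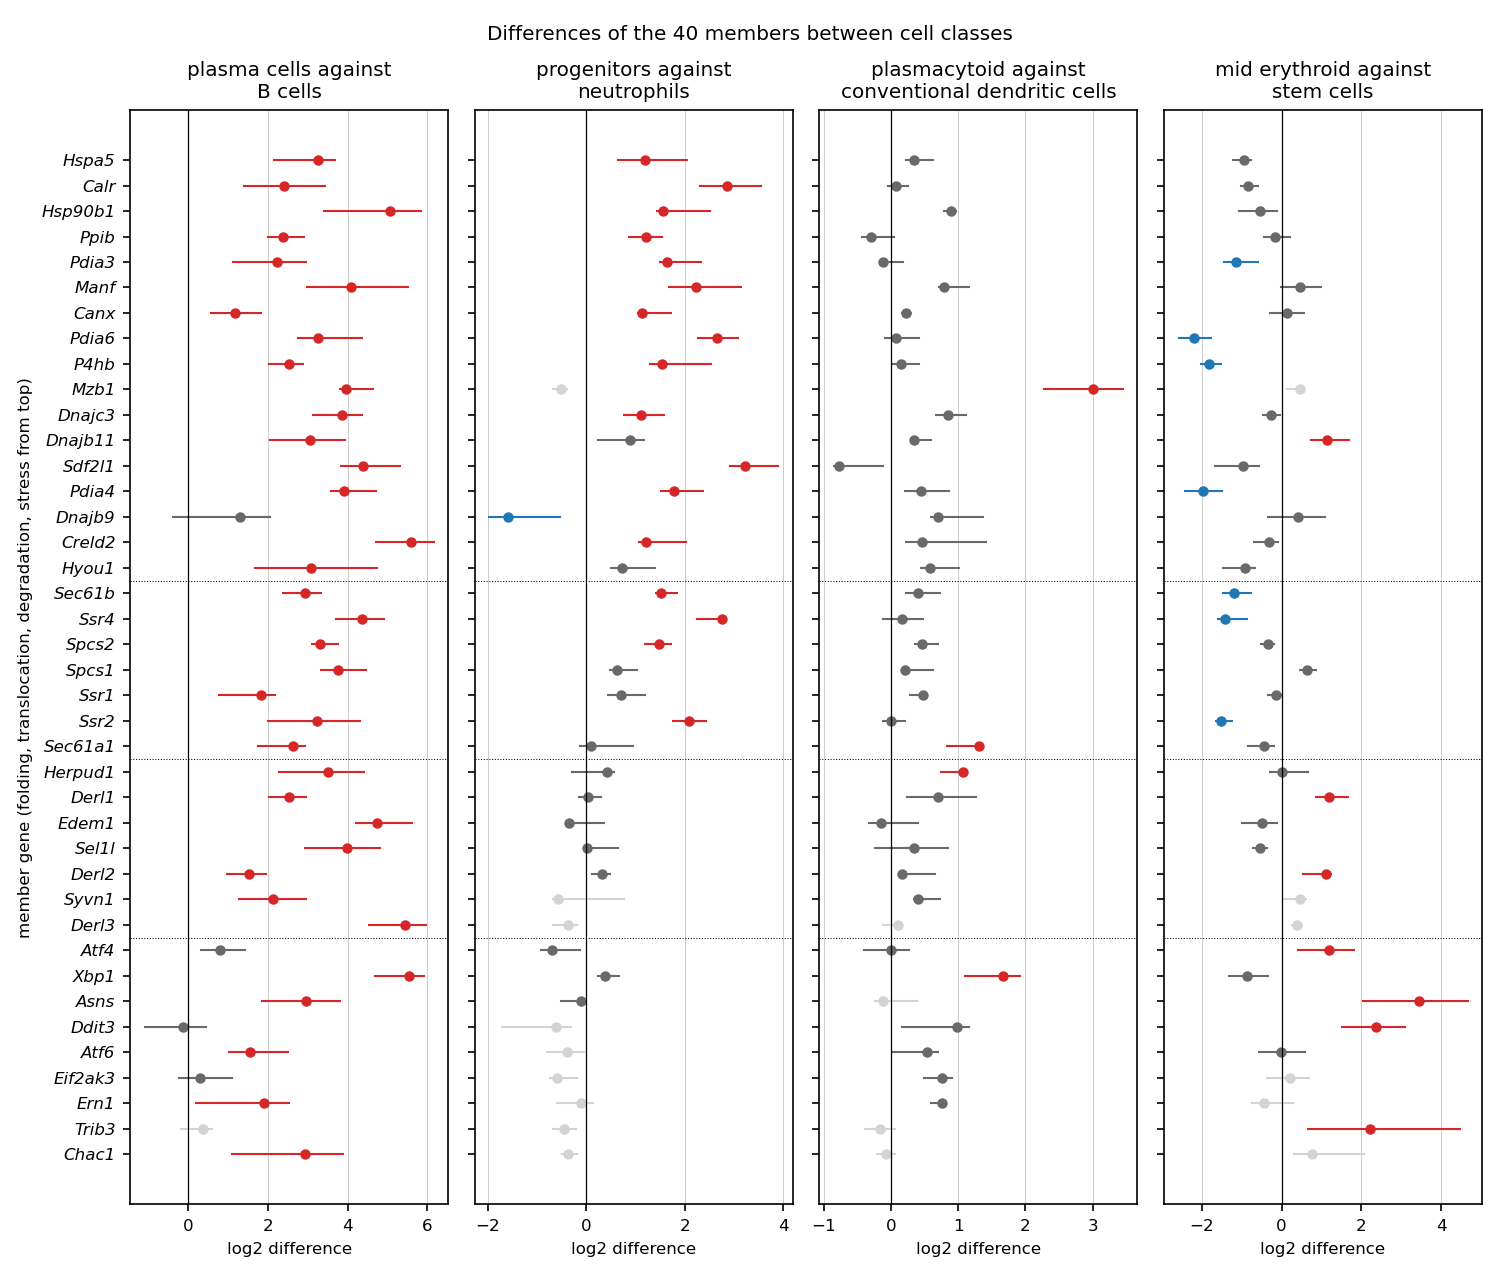
Log2 difference of each of the 40 genes in 4 comparisons of cell classes, centred on the median gene, with dots for the pooled value and lines for the range over runs. Red marks genes called higher, blue genes called lower, dark grey genes not called and light grey genes below the filter: 35 genes are red for plasma against B cell-like cells, 17 for progenitor against neutrophil, 4 for plasmacytoid against conventional dendritic and 7 for mid erythroid against stem cell-like cells.

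The granulocyte-monocyte progenitor-like class, which makes the granule proteins, was set beside the neutrophil-like cells they give rise to. Of 31 genes that passed the filter, 17 were higher in the progenitors (1417 against 3732 cells, 7 runs; background 12.1%) and 1 was lower (background 15.9%), with a median log2 difference of 1.14. Higher were 13 of 16 folding and 4 of 7 translocation genes, and 0 of 5 degradation and 0 of 3 stress genes. The median gene itself was 0.41 higher in the progenitors, which the centring removes. Without repeated barcodes 17 genes were again higher and 1 lower, with the same 2 background shares.

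Sdf2l1, a partner of BiP, led with 154, 216 and 395 CPM over progenitor-like runs against 5.81, 8.46 and 15.8 over neutrophil-like runs (log2 difference 3.23, 2.91 to 3.90). Calr followed with 617, 689 and 1184 against 39.2, 75.0 and 103 CPM (2.86). In Ssr4 the pooled difference was 2.76 (701 against 69.1 CPM), just above the 2.24 to 2.73 of the single runs. The isomerase Pdia6 (320 against 29.4 CPM, 2.66) and Manf (330 against 45.0, 2.22) completed the 5 largest differences. None of these genes, picked for their large differences, overlapped between the runs of the classes. How many of all genes did not overlap was not computed. Hspa5 differed less, at 528, 686 and 933 against 160, 199 and 342 CPM (1.19), as did Hsp90b1 at 517 against 124 CPM (1.57).

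Dnajb9, a BiP co-chaperone, was the gene called lower in the progenitors, with 25.3 against 70.2 CPM (-1.59, -1.97 to -0.54). Its runs overlapped, at 14.6 to 64.2 and 20.3 to 166 CPM. Xbp1 (94.8 against 50.3 CPM, 0.39) and Atf4 (153 against 188 CPM, -0.69) were not called, and Mzb1 and Derl3 were under 2 CPM in both classes. The progenitor-like class was not uniform. Its cluster led by Ctsg and Mpo (676 cells) had a folding arm of 7014 CPM, and its cluster led by Fcnb and Elane (741 cells) 2433 CPM. The 3 neutrophil-like clusters had 1180 CPM (led by Chil3), 922 CPM (led by Mmp8) and 630 CPM (led by Gm5483 and Stfa2l1). With other clustering resolutions the folding arm of the class was 5998 and 6004 CPM, against 4682 CPM here.

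Of 66 further pathway genes, 16 were higher (background 12.1%) and 4 lower (background 15.9%) in the progenitor-like cells. Phgdh, the first enzyme of serine synthesis (2.55), and the oligosaccharyl transferase subunits Krtcap2 (2.51) and Ddost (2.08) were highest. The cystine transporter Slc7a11 (-2.22) and the transcription factors Cebpb (-1.62) and Atf3 (-1.32) were lowest. Eif2ak1 differed by -0.52 and Eif2ak2 by -0.07.

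Plasmacytoid dendritic cell-like cells, which secrete interferon, differed from the weakly named conventional dendritic cell-like class in few of these genes. That class was led by the lymphoid progenitor markers Tbc1d4 and Dntt, so it may not stand for conventional dendritic cells. Of 36 that passed the filter, 4 were higher (954 against 515 cells, 4 runs; background 7.28%) and 0 lower (background 6.58%), and the median log2 difference was 0.42. Of the plasmacytoid cells, 78.3% came from run 6. The 4 genes were Mzb1 (180 against 13.4 CPM, 3.01, 2.28 to 3.45), Xbp1, Sec61a1 (the pore of the channel, 272 against 103, 1.30) and Herpud1 (519 against 240, 1.07). Xbp1 stood at 128 to 275 CPM over the plasmacytoid runs and at 47.3 to 94.5 over the conventional runs, without overlap (1.67, 1.10 to 1.93). Hspa5 (1049 against 820 CPM, 0.34), Hsp90b1 (957 against 505, 0.90), Ddit3 (0.98) and Sdf2l1 (-0.77) were not called. Without repeated barcodes the same counts of 4 and 0 were found (background 7.32% and 6.6%). Leaving out single runs gave 4 to 5 genes, and a smaller added constant of 1 CPM gave 7.

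Of 78 further pathway genes, 8 were higher in the plasmacytoid cells (background 7.28%) and 2 lower (background 6.58%). Nucb2, a calcium-binding protein, led at 2.40, with the degradation gene Edem3 at 1.34 and Txndc5 at 1.21. Atf3 (-1.91) and the serine synthesis enzyme Psat1 (-1.23) were lower. Eif2ak1 (0.18) and Eif2ak2 (0.15) were not called.

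Mzb1 marked B-lineage and plasmacytoid classes. After plasma cell-like cells it was highest in pro-B and pre-B cell-like cells, at 368, 620 and 1042 CPM over runs (pooled 592), then in B cell-like cells at 395 and in plasmacytoid cells at 180 (143 to 197). The pro-B and B cell-like ranges overlapped. Immunoglobulin UMIs were found in every class, and the part of free RNA from plasma cells in these Mzb1 levels was not tested. The ratio of Mzb1 to immunoglobulin constant region UMIs of the same cells is given beside them. Plasma cell-like cells held 5.06 Mzb1 UMIs per 1000 such UMIs, and erythroid cells with 20 to 60% globin 5.19, neutrophil-like cells 5.26 and T cell-like cells 3.14. In plasmacytoid, pro-B and B cell-like cells the ratio was 65.7, 72.2 and 37.0. It was 14.7 in conventional dendritic cell-like cells.

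Pro-B and pre-B cell-like cells combined a folding arm close to that of B cell-like cells (3134 and 2925 CPM) with the second highest degradation arm, at 958 CPM. Herpud1 held most of that arm, at 218, 704 and 820 CPM over runs. Syvn1 (88.2 CPM) and Dnajb9 (132 CPM) were also higher there than in every class but the plasma cell-like one, whereas Xbp1 stood at 44.8 CPM. Basophil and mast cell-like cells (128 cells) were second to plasma cell-like cells for the chaperones Hspa5 (2314 CPM), Calr (1590) and Hsp90b1 (1428). In Pdia3 (676 against 728 CPM) and P4hb (381 against 389 CPM) they came close to plasma cell-like cells. Their stress arm, at 434 CPM, was below that of B cell-like cells (491 CPM).

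The likeness of each gene's course over the 19 classes to that of Hspa5 was described with Pearson's r on log levels. All classes share the same libraries, so no test was made. Calr (0.92), Hsp90b1 (0.88), Manf (0.85), Hyou1 (0.85) and Creld2 (0.84) were most alike. Trib3 (-0.17), Asns (-0.14) and Ddit3 (-0.09) were least alike, followed by Eif2ak3 (0.22) and Atf4 (0.29). By Spearman's rank correlation the least alike were Ddit3 (-0.18), Trib3 (-0.15), Chac1 (-0.12) and Asns (-0.12). Chac1 stood at 0.57 by Pearson's r, so the order depends on the measure.

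Erythroid cells showed the other side of the module: the highest CPM of Atf4, Ddit3, Asns and Trib3 outside globin and immunoglobulin. Low levels of isomerase and translocation genes stood beside these from 20% globin on. At lower globin shares the translocation arm was not low, at 1381 CPM (under 2%) and 1129 CPM (2 to 20%), ranks 9 and 11 of 19 classes. The other stress genes were not highest in erythroid cells. Xbp1 had its lowest level of all 19 classes at 20 to 60% globin (23.1 CPM), and Atf6 (9.15 CPM) and Eif2ak3 (1.08 CPM) had theirs at 80% or more. Chac1 had its second highest level of the 19 classes at 20 to 60% globin, but at only 3.91 CPM, against 65.0 CPM in plasma cell-like cells. Atf4 (chr15:80255184-80257541) stood at 287 CPM in stem and multipotent progenitor-like cells and at 216, 264, 532, 448 and 205 CPM in the 5 stages of rising globin share. It was higher with 20 to 60% globin (375, 482 and 719 CPM over runs) than with 2 to 20% (197, 268 and 362) in each of 7 runs. It was lower again at 80% or more than at 60 to 80% in each of 7 runs. The stages at 20 to 60% and 60 to 80% were not separated, with 4 of 7 runs higher in the later. Among the erythroid stages the peak at 20 to 60% was kept with all UMIs as the total (316 CPM, against 236 before and 137 after it).

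Ddit3 stood at 30.2 CPM in stem cell-like cells, at 60.6, 122 and 158 CPM up to 20 to 60% globin, and then at 104 and 45.2 CPM. Both steps up among the erythroid stages were seen in 7 of 7 runs. On the scale of all UMIs its highest stage was instead 2 to 20% globin, at 109 CPM against 93.7 CPM. Asns followed another course: 11.7 CPM in stem cell-like cells (1.99, 12.0 and 15.1 over runs) and already 202 CPM (96.6, 215 and 298) in erythroid cells with under 2% globin, with no overlap. It then stood at 175, 180, 146 and 71.6 CPM. Without repeated barcodes the cells with under 2% globin had 201 CPM of Asns, 217 of Atf4, 61.6 of Ddit3, 435 of Hspa5, 264 of Hsp90b1 and 86.1 of Pdia6.

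Trib3, a pseudokinase that restrains the response, was uneven between runs. At 60 to 80% globin its pooled level was 33.1 CPM, made of 128, 247 and 192 CPM in runs 1, 2 and 7 and 0 to 14.5 CPM in the other 4. Runs 1, 2 and 7 held only 21, 34 and 154 cells of that stage. At 20 to 60% Trib3 ranged from 4.16 to 160 CPM around a median of 11.8. Asns at 60 to 80% globin was also spread, from 27.1 to 643 CPM. The summed stress arm at that stage ranged from 462 to 2214 CPM around a median of 651, while the folding arm ranged from 1535 to 2622 CPM around 1907. Which libraries these runs are is not known, so whether the spread goes with organ or genotype was not tested.

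**Figure D4:**
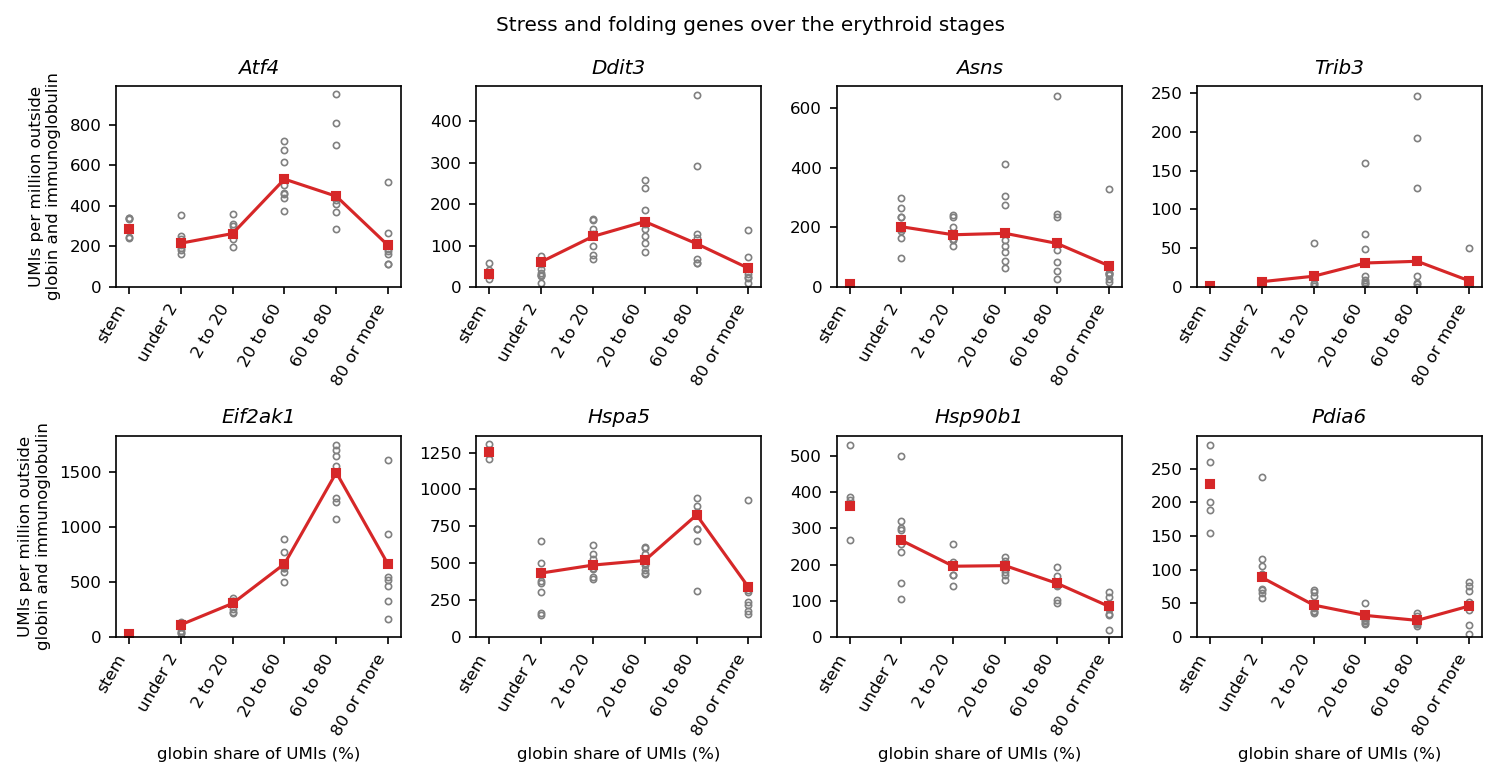
Levels of 8 genes in CPM outside globin and immunoglobulin (vertical) over stem cell-like cells and 5 erythroid stages of rising globin share (horizontal), with grey circles for runs with at least 20 cells and red squares for pooled levels. Atf4 and Ddit3 peak at 20 to 60% globin (532 and 158; Ddit3 at 2 to 20% when all UMIs form the total), Eif2ak1 at 60 to 80% (1498), and Pdia6 descends from 227 to 24.5 before 80% globin.

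The haem-regulated kinase gene Eif2ak1 (chr5:143817788-143904251), which is not among the 40, was high in the same cells. It stood at 27.3 CPM in stem cell-like cells and at 110, 305, 665, 1498 and 660 CPM over the erythroid stages, with each of the first 3 steps up seen in 7 of 7 runs. In the non-erythroid classes it lay at or below the 72.0 CPM of megakaryocyte and platelet-like cells. The double-stranded RNA kinase Eif2ak2 had 40.4 to 89.3 CPM in the first 4 erythroid stages, and the amino acid sensor Eif2ak4 went from 13.5 to 0.51 CPM over them.

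The folding genes did not share 1 course. Hspa5 had 1207 to 1306 CPM over stem cell-like runs (pooled 1255) and 433, 487, 518, 827 and 338 CPM over the erythroid stages. Each step up to 60 to 80% globin was seen in 5, 5 and 6 of 7 runs. Its level at that stage spread from 309 to 945 CPM, and on the scale of all UMIs it did not exceed the earlier stages there (253 against 308 CPM at 20 to 60%). Lower courses were those of Hsp90b1, which went from 362 to 267, 196, 197, 148 and 84.5 CPM, and Pdia6 from 227 to 88.4, 47.3, 31.9, 24.5 and 45.8 CPM. The translocation arm was lower at 20 to 60% than at 2 to 20% globin in 7 of 7 runs (862 against 1129 CPM) and lower again at 60 to 80% in 7 of 7 runs (570 CPM).

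To put both arms on 1 scale, erythroid cells with 20 to 60% globin were set beside stem and multipotent progenitor-like cells (3215 against 590 cells, 5 runs), a comparison added after the levels had been seen. Of 34 genes that passed the filter, 7 were higher (background 25.8%) and 7 lower (background 26.4%), shares below those of all genes in both directions. Of 6 stress genes 4 were higher and 0 lower (median 1.71). Of 16 folding genes 1 was higher and 4 lower (median -0.68), and that lower share is close to the background of 26.4%. The difference between the arms was not tested. Higher were Asns (3.45, 2.05 to 4.66 over runs), Ddit3 (2.38, positive in all 5 runs), Trib3 (2.23, 0.66 to 4.47), Atf4 (1.19, 0.42 to 1.81), the derlins Derl1 (1.19) and Derl2 (1.11), and the co-chaperone Dnajb11 (1.13).

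Lower were the isomerases Pdia6 (-2.18, -2.58 to -1.78), Pdia4 (-1.97), P4hb (-1.83) and Pdia3 (-1.13) and the translocation genes Ssr2 (-1.52), Ssr4 (-1.41) and Sec61b (-1.18). Ssr4 stood at 127 against 444 CPM and Pdia4 at 2.93 against 53.3. Hspa5 (-0.94), Calr (-0.84) and Xbp1 (-0.86) were not called. Without repeated barcodes 7 were again higher and 7 lower (background 25.9% and 26.3%). The median gene lay at -0.32 before centring, and without centring 3 genes were higher and 12 lower. With all UMIs as the total as well, which put the median gene at -0.95, 2 were higher and 21 lower. The share of all genes called was not computed in these settings. Leaving out single runs gave 6 to 7 higher and 7 to 9 lower.

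Of 74 further pathway genes, 19 were higher (background 25.8%) and 14 lower (background 26.4%) in the erythroid cells, shares no larger than those of all genes. Eif2ak1 led (665 against 27.3 CPM, 4.50), followed by Mthfd2, a mitochondrial folate enzyme (244 against 16.6, 3.58), and Ppp1r15a, which reverses the kinases' mark on the initiation factor (1367 against 240, 2.78). Krtcap2 (-3.47), Phgdh (-3.43) and Atf3 (-2.92) were lowest. Eif2ak2 was not called at 0.80.

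Between the early stages (under 20% globin, 2954 cells) and the late ones (60% or more, 4014 cells), 0 of 29 genes were higher early (background 12.4%) and 4 were lower (background 23.8%). The 4 were Herpud1 (-1.54), Atf4 (-1.41), Dnajb9 (-1.35) and Xbp1 (-1.19), and the median over the 29 genes was -0.03. Without repeated barcodes the counts were again 0 and 4 (background 12.5% and 23.8%). These calls rest on the centring. The median gene was 0.78 higher in early cells before centring, and without it 9 genes were higher and 0 lower. With all UMIs as the total as well, 25 were higher and 0 lower, and Atf4 (1.40), Herpud1 (1.03) and Xbp1 (0.89) changed sign.

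Of 68 further pathway genes, 4 were higher (background 12.4%) and 14 lower (background 23.8%) in early cells, shares no larger than those of all genes. The channel subunit Sec61g (-3.61), Ppp1r15a (447 against 2737 CPM, -3.37) and Eif2ak1 (242 against 1298 CPM, -3.16) were lowest. The chaperone-like Erp29 (2.01), the cargo receptor Lman1 (1.40) and Srp19, a part of the signal recognition particle (1.20), were highest.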

How the data were processed

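RNA was measured with 10x 3′ single-cell libraries. Cell Ranger 5.0.0, Seurat 3.1.5 and the build mm10 are named per the submitters' processing notes, with cell filters and annotation not given in the sources used here. UMI counts per gene and cell were deposited by the authors as 1 table with barcodes only, so no cell has a group, and no sample is a replicate. No cell fell under 200 genes or over 20% mitochondrial UMIs. Scrublet marked 17 cells (0.0682%), too few to have worked, so doublets may remain. The other 24925 were clustered with scanpy 1.11.5 (2000 variable genes without the 40 genes and the pathway list, 30 components, 15 neighbours, Leiden resolution 1) into 31 clusters. A name needed at least 1 fixed marker among the 50 leading genes and at least 3 markers at 50 CPM. Clusters that another class marked as well among the leading genes stayed unnamed. Erythroid clusters of 1062, 696 and 534 cells had only 1 marker among the 50 leading genes, with 15, 17 and 19 markers detected.

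UMI counts were summed per class and run. Totals left out 10 globin and 183 immunoglobulin genes. Intervals are exact Poisson at 95% and cover counting error only. The script for calls was tested on simulated data. Full values are given for the 4 genes of each arm with most UMIs, for Mzb1, Derl3, Trib3 and Chac1, and for the 5 called genes with the largest difference each way. For the pathway list they are given for the 3 largest each way and for 3 kinases. The genes and lists were chosen with earlier results of these data known. Alternatives covered the added constant, the filter, the total, centring, resolution, cell filters, doublets and each run left out. Gene positions are from GENCODE M21 on GRCm38.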

Additional observations from a re-analysis of the deposited data

Results flagged for a closer look

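In 4 of 34 sets of run values, a single run stood apart from the others by more than Dixon's limit at the 95% level. Chance alone marks about 1 in 20 such sets, and the run is in each case an unnamed library. In erythroid cells with 80% or more globin the highest of 7 runs for the folding arm was run 6, at 2441.7 CPM (pooled level 1192). For the stress arm it was another run, run 7, at 1101.4 CPM (pooled level 376). In granulocyte-monocyte progenitor-like cells the highest of 7 runs had a stress arm of 540.6 CPM (pooled level 322). In megakaryocyte and platelet-like cells the highest of 6 runs had a stress arm of 1055.7 CPM (pooled level 457).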

How the results depend on the processing

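No paired analysis was possible because no cell carries a labelled replicate number. Differences were read within each unnamed run that held both classes, without a test. Of the alternatives to the leading results, 281 kept direction and stayed within the spread over runs or 1.5 times the count, and 25 moved. Of those for single genes, 410 stayed, 34 moved and 3 reversed. With all UMIs as the total and no centring (chosen after seeing the data), Xbp1 (0.887), Atf4 (1.397) and Herpud1 (1.034) reversed between early and late erythroid cells, where 25 genes were then higher and 0 lower. In that comparison there were 7 higher and 0 lower genes with no filter on low levels, 5 and 0 with all UMIs as the total, 9 and 0 without centring, 1 higher with stricter cell filters (500 genes, 10% mitochondrial UMIs), and 0 to 1 higher and 4 to 6 lower with single runs left out (1 higher without run 1 or run 5). For mid erythroid against stem cell-like cells, 3 were higher and 12 lower with no filter and also without centring, and 2 and 21 with all UMIs and no centring. Plasma against B cell-like cells gave 1 lower gene in that last setting. Plasmacytoid cells had 7 higher genes with a constant of 1 CPM. Leaving out single runs gave 35 to 36 genes higher in plasma cell-like cells, 17 in progenitor-like cells and 4 to 5 in plasmacytoid cells. With all UMIs as the total the folding and stress arms were 15201.1 and 1272.5 CPM in plasma cell-like cells and 1392.7 and 567.8 CPM in erythroid cells with 20 to 60% globin, since immunoglobulin and globin UMIs then enter the total. The progenitor-like folding arm was 5997.8 CPM at resolution 0.5 and 6003.6 CPM at resolution 2. At resolution 0.5 the class was a cluster of 953 cells led by Elane and Mpo. At resolution 2 a cluster of 461 cells led by Fcnb and Camp stayed unnamed. The cause of the higher level was not tested. At resolution 0.5 no cluster took the name of conventional dendritic cells, so that comparison was not made there. Leaving out cells with repeated barcodes was also chosen after seeing the data. Shares over all genes were computed only for the main setting and for this one, so the other counts have no background.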

Other observations

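Plasma cell-like cells were not uniform in these genes along the share of immunoglobulin among their UMIs. The 231 cells with a share of at least 50% had Xbp1 at 2445 CPM, the 126 cells with 20 to 50% at 1444 CPM and the 111 cells below 20% at 827 CPM. The stress arm had the same order, at 3443, 2372 and 1511 CPM. The folding arm had the reverse order, at 26310, 45817 and 47007 CPM, and so did the proliferation gene Mki67, at 96.4, 286 and 787 CPM. Median UMIs per cell were 22346, 7243 and 851 in these ranges, and 22 cells lay within 1 percentage point of a cut.

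Without repeated barcodes, 203, 67 and 33 cells remained in the same ranges. Xbp1 kept its order, at 2468, 1574 and 947 CPM. The folding arm was then highest in the middle range, at 25813, 43753 and 26168 CPM, and so was Hsp90b1, at 6093, 13216 and 7321 CPM. The wide gap of the folding arm between the outer ranges was thus seen only with the cells whose barcodes occur in more than 1 run. No test of these differences was made, since the cells come from 1 pooled table.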
